A study of Mus musculus with 6 samples.

Results

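The genes described here are 35 core autophagy, mitophagy and FoxO genes of mouse skeletal muscle, chosen by their names and roles, though with earlier results of these data known. All 35 were found among the 41709 genes of the deposited table, and all 35 had a mean of at least 1 TPM (transcripts scaled to a fixed total per library) over the 6 libraries, the level at which 11611 genes were tested. They fall into 8 roles: initiation, nucleation, membrane supply, conjugation, the LC3 and GABARAP family, soluble cargo receptors, mitophagy receptors with *Pink1*, and FoxO transcription factors.

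Macroautophagy encloses portions of cytoplasm or whole organelles in a double membrane that fuses with the lysosome. The ULK1 kinase complex starts the process, a class III phosphatidylinositol 3-kinase complex marks the membrane with phosphatidylinositol 3-phosphate, and 2 conjugation reactions attach proteins of the LC3 and GABARAP family to it. Cargo receptors bind these proteins and their cargo, which in mitophagy is a mitochondrion. In skeletal muscle, FoxO factors are known to raise transcription of several autophagy genes during fasting and denervation, and both too little and too much autophagy are known to damage fibres.

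Libraries were made from tibialis anterior (TA) muscles of male C57BL/6J mice. One TA was electroporated with a pCMV6 plasmid encoding Flag-tagged wild-type Lrpprc (LrpprcWT), and the contralateral TA received the same plasmid encoding the variant in which proline 27 is alanine (LrpprcP27A), which cannot be hydroxylated at that residue. Each group has 3 libraries, taken 14 days after electroporation. The study electroporated mice of 4 and 27 months, and the labels do not give the age of the sequenced mice. Lrpprc is a mitochondrial RNA-binding protein that has also been described as a transcriptional coactivator. Both groups carry a plasmid with the CMV promoter, which acts in any cell the DNA enters, and both keep the endogenous *Lrpprc* gene, so extra Lrpprc is common to both groups and the residue is what differs by design. *Lrpprc* itself was at 35.1, 37.0 and 75.2 TPM with LrpprcWT and at 26.9, 29.7 and 26.0 TPM with LrpprcP27A. Reads from the plasmid and from the gene cannot be told apart in these values, so they do not check the labels.

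The libraries differed as a whole, and this touches every value that follows. TPM are shares of a fixed total, so a gene's TPM depends on all the others, and they keep no sequencing depth. On the deposited TPM, the log2 fold change was below 0 in 88.0% of the tested genes, with a median of -0.32. Median-of-ratios scaling, which divides each library by the typical ratio of its genes to their geometric mean over libraries, used factors of 0.974 to 1.25 with LrpprcWT and of 0.851 to 0.899 with LrpprcP27A and brought that median to -0.0047. Transcripts of the mitochondrial genome made up 36.0% to 45.2% of TPM with LrpprcWT and 44.2% to 46.1% with LrpprcP27A, and the ribosomal RNA gene *Rn18s-rs5* 0.887% to 1.76% and 3.70% to 4.44%. The 10 muscle fibre markers (*Acta1*, *Ckm*, *Ttn* and others) summed to 121500 to 134606 TPM and to 110073 to 123874 TPM, so the tissue label matched its markers in every library. Of the markers of other cell types, 10 of 10 for macrophages fell (sums of 316.4 to 636.5 TPM against 105.4 to 216.1) and 9 of 10 for fibroblasts fell (sums of 1034 to 1733 TPM against 280.7 to 614.9). The numbers were 3 of 10 for endothelial cells, 4 of 6 tested for satellite cells, 1 of 5 tested for Schwann cells and 1 of 5 tested for adipocytes, and 0 markers of these lists rose on the deposited TPM. Of the muscle fibre markers 2 of 10 fell. With median-of-ratios scaling 4 macrophage, 6 fibroblast and 2 satellite cell markers fell, 0 fell in the other lists, and 1 muscle fibre marker rose. In these bulk samples fewer cells of a type and less RNA per cell cannot be told apart, and the part of these shifts in the values of the autophagy genes was not tested.

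Upstream sequences of the 35 genes were searched in the 250 bases before the annotated start of each gene's canonical transcript (GRCm39, GENCODE). Windows around 5 of the matches are shown. The letters they hold are those that factors known to act on autophagy genes bind: CACGTG for TFEB and TFE3, TGTTTAC for FoxO factors, and TGACNNNGC for NRF2, where N is any base. Capitals mark the match, on either strand, with 20 bases on each side, written 5′ to 3′ on the strand of the gene.
*Gabarap*, chr11:69881826-69881871, plus strand, CACGTG ending 37 bases before the start: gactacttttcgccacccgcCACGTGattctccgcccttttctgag
*Bnip3*, chr7:138511318-138511363, minus strand, CACGTG ending 85 bases before the start: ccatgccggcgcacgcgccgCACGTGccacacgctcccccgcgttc
*Becn1*, chr11:101193138-101193184, minus strand, TGTTTAC on the other strand, 44 bases before the start: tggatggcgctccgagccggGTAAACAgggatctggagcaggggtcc
*Sqstm1*, chr11:50102982-50103030, minus strand, TGACNNNGC ending 117 bases before the start: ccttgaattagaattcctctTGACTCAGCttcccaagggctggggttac
*Bnip3l*, chr14:67246410-67246458, minus strand, TGACNNNGC on the other strand, 96 bases before the start: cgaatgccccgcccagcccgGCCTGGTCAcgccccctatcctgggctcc

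None of these 5 windows overlaps an annotated exon. The window of the remaining match, TGACNNNGC of *Foxo3*, overlaps exons of *Gm56983* and *Gm66047* and is not shown. CACGTG was found in 2 of the 35 genes (*Gabarap* and *Bnip3*) and in 8.01% of the 10925 promoters of tested protein-coding genes, and its longer form TCACGTGA in 0 of the 35 and in 1.19%. TGTTTAC was found in 1 of the 35 (*Becn1*) and in 2.38% of promoters, and TGACNNNGC in 3 of the 35 (*Sqstm1*, *Bnip3l* and *Foxo3*) and in 10.8%. A match is a description of these letters and not a site, and no match says only that the letters are not in this window. On the deposited TPM the 5 genes with a window shown had log2 fold changes of both signs, and *Gabarap* alone among them passed the test.

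To ask whether genes of autophagy and mitophagy differed between LrpprcP27A and LrpprcWT muscles, each gene was tested with limma on log2(TPM + 1), adjusted over all 11611 genes. On the deposited TPM 3 genes fell (*Map1lc3a*, *Gabarap* and *Nbr1*), and 0 rose. That is 8.57% of the 35 genes, where 23.3% of all tested genes were lower, and 1.34% of all tested genes were higher. At an unadjusted p under 0.05 from limma, 7 of the 35 were lower and 3 higher, where 44.2% and 2.59% of all tested genes were. The lower calls were 0 without replicate 1 or 3 of LrpprcWT or replicate 3 of LrpprcP27A and 1 (*Map1lc3a*) without LrpprcP27A replicate 1 or 2, settings under which 0.129% to 14.5% of all genes fell. Without LrpprcWT replicate 2 they were 14, where 59.5% of all genes fell, and 2 genes rose (*Pink1* and *Foxo4*), where 2.62% of all genes did. The median over the 35 genes was -0.24 on the log2 scale, and 27 of the 35 lay above the median of all genes. In 9 of the 35 genes every LrpprcP27A library lay below every LrpprcWT library (47.6% of all tested genes did), and in 4 (*Ulk1*, *Optn*, *Pink1* and *Foxo4*) every LrpprcP27A library lay above (3.51% of all tested genes did).

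The direction of most of these genes depended on the scaling. With median-of-ratios scaling 0 of the 35 fell (6.03% of all genes tested did, and at an unadjusted p under 0.05, 1 of the 35 was lower and 17.4% of all genes), while 6 rose: *Ulk1*, *Ulk2*, *Sqstm1*, *Optn*, *Pink1* and *Foxo4*. These 6 are 17.1% of the 35, where 5.25% of all tested genes rose. On that scale the median over the 35 was 0.10, and 29 were above 0, where 49.2% of all genes were. On the deposited TPM 29 of the 35 were below 0. After rescaling to the TPM outside the mitochondrial genome and ribosomal RNA, 15 were above 0 (27.3% of all genes were), and by test *Map1lc3a* was lower (5.66% of all genes) and *Optn* and *Foxo4* higher (1.88% of all genes). With median-of-ratios scaling 0 of the 35 rose without replicate 1 or 3 of LrpprcWT or replicate 2 or 3 of LrpprcP27A. Without LrpprcWT replicate 2 the number was 9. Without LrpprcP27A replicate 1 it was 6, with *Bnip3* in place of *Pink1*. Of all genes, 11.7% rose without LrpprcWT replicate 2, 4.52% without LrpprcP27A replicate 1 and 0.0258% to 0.0603% without each of the others.

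**Figure D1:**
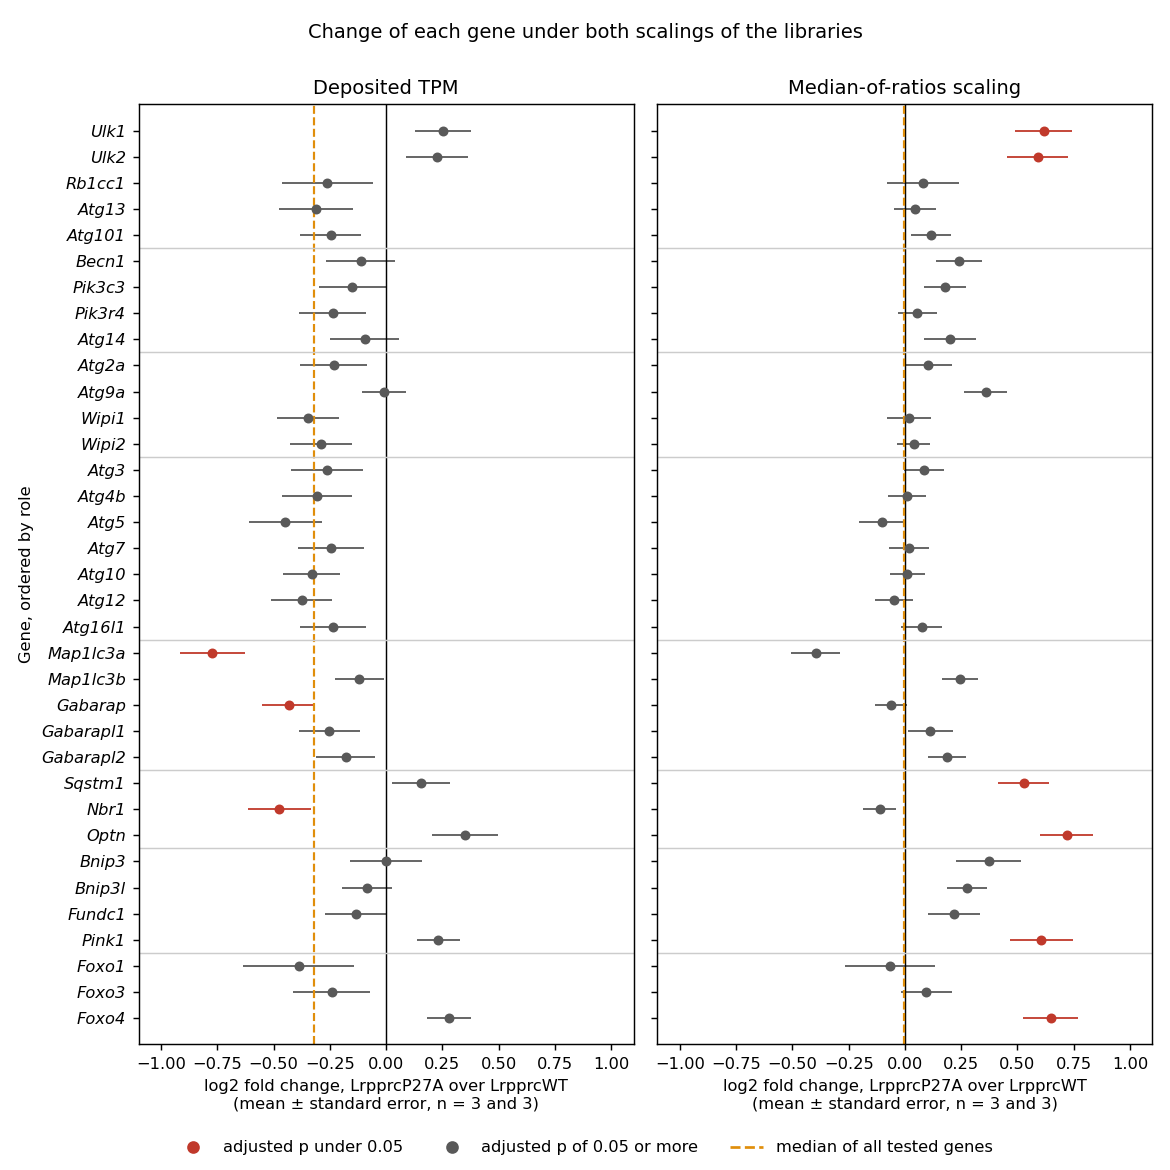
Log2 fold change of each of the 35 genes, LrpprcP27A over LrpprcWT, with its standard error from limma (3 libraries per group), on the deposited TPM (left) and with median-of-ratios scaling (right); red points have an adjusted p under 0.05 and the dashed line is the median of all tested genes. *Map1lc3a* is the lowest point in both panels (-0.77 and -0.40), and *Optn* the highest (0.35 and 0.72).

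Libraries of the same number, taken as contralateral muscles of a mouse, varied together, so a fit with the replicate number as a block was also made. It called 9 of the 35 lower, adding *Atg13*, *Wipi1*, *Atg5*, *Atg10*, *Atg12* and *Foxo1*, where 48.4% of all genes were lower. It called 1 higher (*Optn*), where 2.69% of all genes were. Block and median-of-ratios scaling in one fit called 1 lower (*Map1lc3a*; 15.8% of all genes) and 9 higher (13.4% of all genes), which were the 6 above with *Atg9a*, *Bnip3* and *Bnip3l*.

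**Figure D2:**
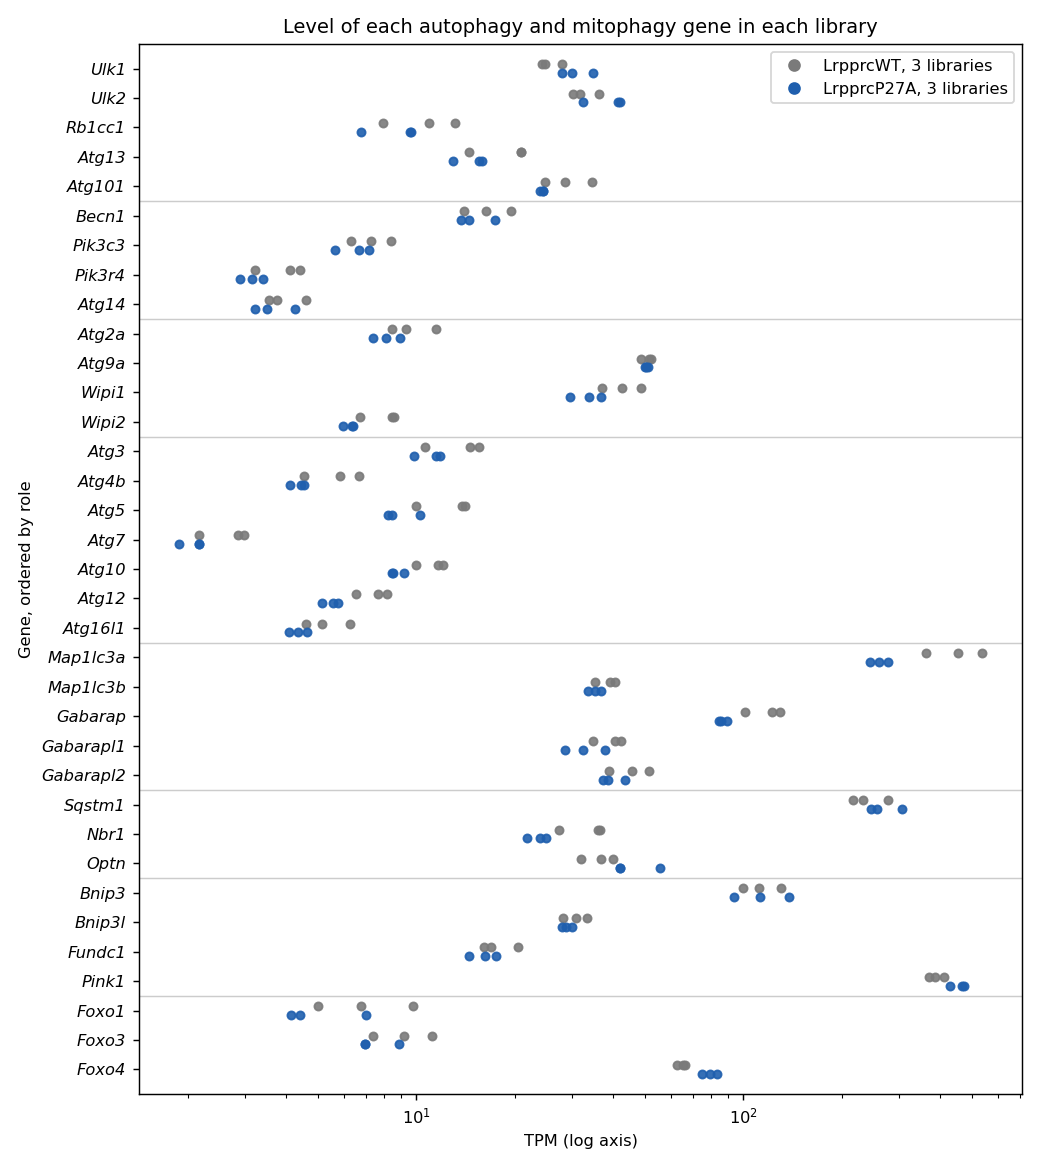
TPM of each of the 35 genes in each library on a log axis, with LrpprcWT in grey and LrpprcP27A in blue (3 libraries each) and lines between the 8 roles. *Map1lc3a* and *Gabarap* show blue points below all grey ones, and *Pink1* and *Foxo4* blue points above them. By mean TPM the conjugation genes rank from 21 (*Atg3*) to 35 (*Atg7*, the lowest), among genes of other roles such as *Atg14* and *Pik3r4*.

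The levels of the 35 spanned a wide range, and TPM, being per length, may be compared between genes. *Pink1*, *Map1lc3a* and *Sqstm1* were the most abundant, at a mean of 389, 452 and 242 TPM with LrpprcWT and of 456, 261 and 269 TPM with LrpprcP27A, and *Atg7* was the least abundant at 2.66 and 2.07 TPM. The order of the upper 2 thus differed between the groups, with *Map1lc3a* above *Pink1* on average with LrpprcWT and below it with LrpprcP27A. In LrpprcWT replicate 2, *Map1lc3a* (362 TPM) was already below *Pink1* (411 TPM). The 35 genes together made up 1966, 1760 and 2141 TPM with LrpprcWT and 1748, 1734 and 1894 TPM with LrpprcP27A, ranges that overlap.

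Initiation depends on ULK1 and its relative ULK2, the kinases, with ATG13, ATG101 and RB1CC1 (FIP200) as partners. *Ulk1* (chr5:110931496-110957995) had 27.8, 24.9 and 24.3 TPM with LrpprcWT and 27.9, 29.9 and 34.8 TPM with LrpprcP27A. The groups do not overlap, but replicate 1 differed by little between them. Its log2 fold change was 0.25 (SE 0.12, adjusted p = 0.14 from limma) on the deposited TPM and 0.62 (SE 0.13, adjusted p = 0.034) with median-of-ratios scaling. *Ulk2* (chr11:61665841-61746170) had 36.3, 30.2 and 31.6 TPM against 32.3, 41.4 and 42.0 TPM. Of its LrpprcP27A libraries 2 lay above the LrpprcWT range and 1 within it, and the log2 fold change was 0.23 (SE 0.14, adjusted p = 0.21 from limma), or 0.59 (SE 0.14, adjusted p = 0.041) when scaled.

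Of the genes of their partners, *Atg13* had 20.9, 14.5 and 20.9 TPM with LrpprcWT and 15.6, 12.98 and 15.8 TPM with LrpprcP27A, *Rb1cc1* a mean of 10.7 and 8.66 TPM and *Atg101* of 29.3 and 24.3 TPM. None of the 3 passed the test with limma (adjusted p of 0.16, 0.31 and 0.17), and *Atg13* did with the replicate block (log2 fold change -0.31, adjusted p = 0.046). With median-of-ratios scaling their log2 fold changes were 0.04, 0.08 and 0.12. The ratio of *Ulk1* to *Ulk2* within a library was 0.766, 0.824 and 0.768 with LrpprcWT and 0.863, 0.723 and 0.830 with LrpprcP27A, so the kinase pair kept overlapping ratios (exact permutation p = 0.8).

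The class III phosphatidylinositol 3-kinase complex is made of the lipid kinase PIK3C3 (VPS34), its regulatory subunit PIK3R4 (VPS15), BECN1, and ATG14, which directs it to autophagosome formation. None of these 4 genes passed the test under the deposited TPM, the block or median-of-ratios scaling, alone or together. *Becn1* had 16.3, 14.01 and 19.5 TPM with LrpprcWT and 14.5, 13.7 and 17.5 TPM with LrpprcP27A (log2 fold change -0.11, SE 0.15, adjusted p = 0.56 from limma), and the groups overlapped. The other 3 were between 2.89 and 8.39 TPM in every library, with log2 fold changes of -0.15 for *Pik3c3*, -0.24 for *Pik3r4* and -0.10 for *Atg14*.

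Membrane is brought to the growing autophagosome by ATG9A, a lipid scramblase that travels in vesicles, and ATG2A, a lipid transfer protein. WIPI1 and WIPI2 bind phosphatidylinositol 3-phosphate there, and WIPI2 recruits ATG16L1. *Wipi1* was at 48.7, 37.0 and 42.6 TPM with LrpprcWT and at 36.7, 29.5 and 33.8 TPM with LrpprcP27A, so that the groups lay side by side with no overlap. Its log2 fold change was -0.35 (SE 0.14, adjusted p = 0.083 from limma; replicate block, 0.022), close to that of the median gene, and with median-of-ratios scaling it was 0.02. *Wipi2* had no overlap either (log2 fold change -0.29, adjusted p = 0.13 from limma), and *Wipi1* stood at 4.98 to 5.79 times its TPM with LrpprcWT and at 4.96 to 5.74 times with LrpprcP27A. *Atg9a* hardly varied on the deposited TPM, with 52.4, 48.8 and 51.4 TPM against 51.2, 50.4 and 50.0 TPM and a log2 fold change of -0.01 (SE 0.10). As most genes were lower, *Atg9a* stood at 0.36 after median-of-ratios scaling (adjusted p = 0.054 from limma; block, 0.021). *Atg2a* had a mean of 9.76 TPM and of 8.11 TPM (adjusted p = 0.23 from limma).

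Conjugation works like ubiquitination. ATG7 is the E1-like enzyme, ATG10 and ATG3 are E2-like enzymes, ATG12 joined to ATG5 and held by ATG16L1 directs lipid attachment, and ATG4B is the protease that trims LC3 and GABARAP proteins. On the deposited TPM the log2 fold changes of all 7 were below 0, from -0.45 to -0.24, where 88.0% of all genes were below 0. With limma 0 of 7 passed the test, where 23.3% of all genes fell and 1.34% rose. Of the 7, 4 lay above the median of all genes. With median-of-ratios scaling their log2 fold changes were -0.10 to 0.09, and 0 of 7 passed with or without the block.

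Among them *Atg5* had 13.8, 10.02 and 14.1 TPM with LrpprcWT and 8.17, 8.45 and 10.2 TPM with LrpprcP27A (log2 fold change -0.45, SE 0.16, adjusted p = 0.068 from limma; replicate block, 0.010). The groups overlap by LrpprcWT replicate 2, which was below LrpprcP27A replicate 3. *Atg12*, whose product is joined to ATG5, had 7.64, 6.54 and 8.13 TPM against 5.15, 5.55 and 5.76 TPM with no overlap (log2 fold change -0.38, adjusted p = 0.066, and 0.025 with the block). *Atg10* had 11.6, 9.99 and 12.1 TPM against 8.44, 8.52 and 9.18 TPM, also with no overlap (log2 fold change -0.33, adjusted p = 0.078, and 0.038 with the block). The ratio of *Atg5* to *Atg12* overlapped between groups (exact permutation p = 0.7). *Atg3*, *Atg4b*, *Atg7* and *Atg16l1* had adjusted p of 0.21, 0.15, 0.20 and 0.22 from limma and did not pass with the block.

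The LC3 and GABARAP proteins are the ubiquitin-like proteins that end up on the autophagosome, where cargo receptors bind them. *Map1lc3a* (chr2:155118217-155119998, plus strand), which encodes LC3A, fell the most among the 35. It was at 454, 362 and 539 TPM with LrpprcWT and at 261, 277 and 245 TPM with LrpprcP27A, with every LrpprcP27A library below every LrpprcWT library and below its own pair. The log2 fold change was -0.77 (SE 0.15, adjusted p = 0.017 from limma; block, 0.00017), 0.45 lower than the median gene. After median-of-ratios scaling the value was -0.40 (SE 0.11, adjusted p = 0.055, and 0.043 with the block). The call was lost without LrpprcWT replicate 1 (adjusted p = 0.054), LrpprcWT replicate 3 (0.089) or LrpprcP27A replicate 3 (0.052), and the log2 fold change stayed between -0.92 and -0.64 with any 1 library left out.

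*Gabarap* (chr11:69881888-69886109, plus strand), the founder of the other branch of the family, was at 122.1, 101.4 and 129.3 TPM with LrpprcWT and at 89.5, 84.4 and 85.4 TPM with LrpprcP27A. The groups do not overlap, and the log2 fold change was -0.43 (SE 0.12, adjusted p = 0.034 from limma). It lay 0.12 below the median gene, and after median-of-ratios scaling the value was -0.06 (adjusted p = 0.58). Only without LrpprcWT replicate 2 did *Gabarap* keep its call (adjusted p = 0.0039); with any other library left out the adjusted p was 0.062 to 0.12. *Map1lc3b*, which encodes LC3B, had 39.2, 35.2 and 40.7 TPM against 35.3, 33.5 and 36.8 TPM, groups that overlap (log2 fold change -0.12, SE 0.11, adjusted p = 0.39 from limma). *Gabarapl1* had a mean of 39.3 and 32.9 TPM and *Gabarapl2* of 45.4 and 39.8 TPM, with adjusted p of 0.17 and 0.29. How reads that also match processed pseudogenes of this family were counted is not given in the sources used here.

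A ratio of 2 genes within a library does not depend on how libraries are scaled. *Map1lc3a* stood at 11.6, 10.3 and 13.2 times the TPM of *Map1lc3b* with LrpprcWT and at 7.40, 8.27 and 6.64 times with LrpprcP27A. The groups do not overlap, and the log2 ratio differed by -0.65 (SE 0.14, exact permutation p = 0.1, two-sided, n = 3 and 3). The ratio of *Gabarapl2* to *Gabarap* was 0.374, 0.385 and 0.398 against 0.433, 0.441 and 0.510, again without overlap (log2 difference 0.26, SE 0.08, exact permutation p = 0.1). In all 10 ratios were compared, and 0.1 is the smallest p that 3 against 3 libraries allow, so none could pass a threshold of 0.05. The ratio of *Gabarapl1* to *Gabarap* overlapped between groups (exact permutation p = 0.2).

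**Figure D3:**
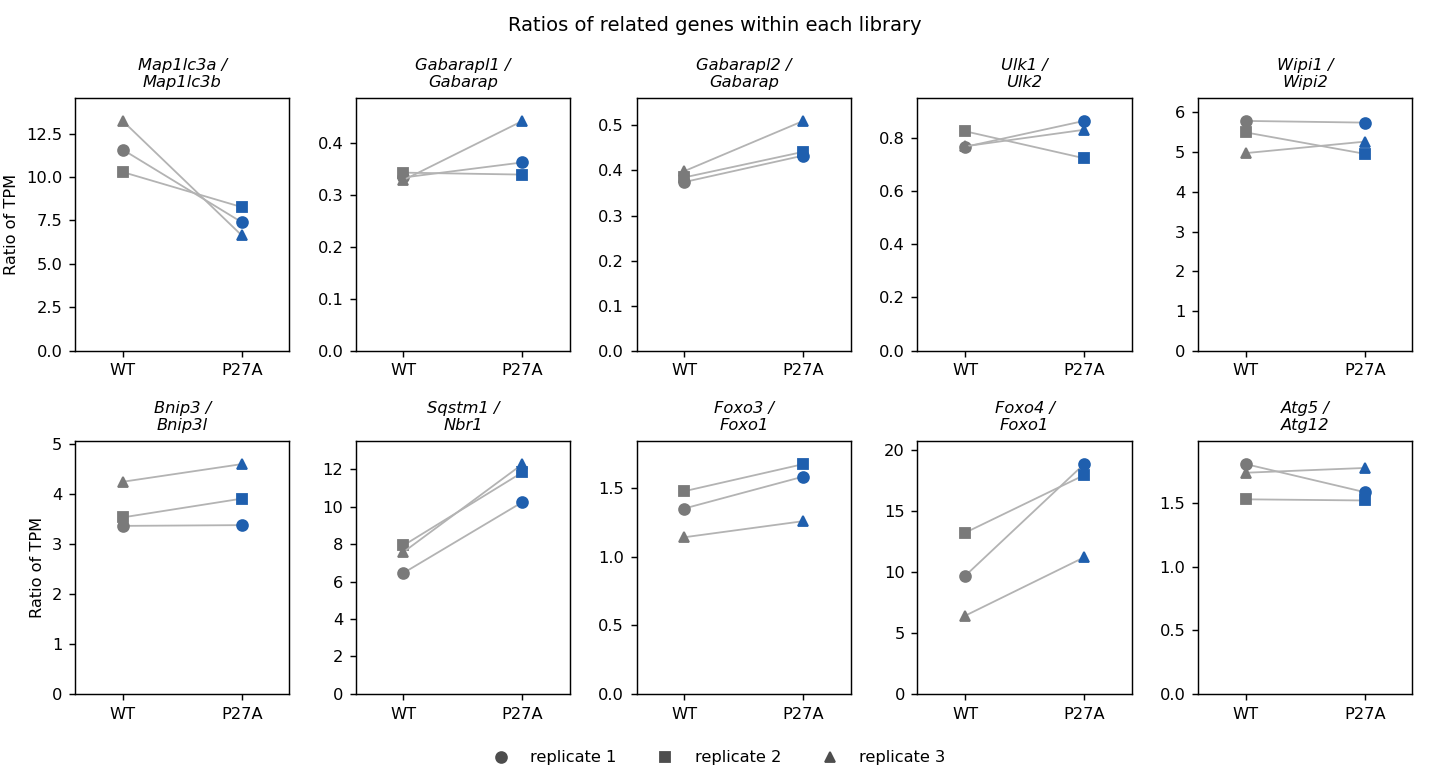
Ratio of TPM of 2 genes within each library for 10 pairs of related genes, with LrpprcWT in grey, LrpprcP27A in blue and a line between libraries of the same replicate number; each axis starts at 0. The ratios of *Map1lc3a* to *Map1lc3b*, *Gabarapl2* to *Gabarap* and *Sqstm1* to *Nbr1* do not overlap between the groups.

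Within the summed TPM of the 5 family genes, *Map1lc3a* made up 64.7%, 63.2% and 67.1% with LrpprcWT and 57.1%, 60.1% and 54.6% with LrpprcP27A (65.0% ± 1.95 against 57.3% ± 2.77, SD, n = 3 each). The share of *Map1lc3b* was 5.60% ± 0.538 and 7.74% ± 0.475, of *Gabarap* 17.1% ± 0.852 and 19.0% ± 0.641, of *Gabarapl1* 5.71% ± 0.396 and 7.23% ± 1.11, and of *Gabarapl2* 6.58% ± 0.208 and 8.76% ± 0.850 (SD, n = 3 each). None of the 5 shares overlapped between groups (exact permutation p = 0.1 for each, the smallest possible). The shares sum to 100% in each library, so the 5 tests are not independent, and a lower share of *Map1lc3a* raises the others.

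**Figure D4:**
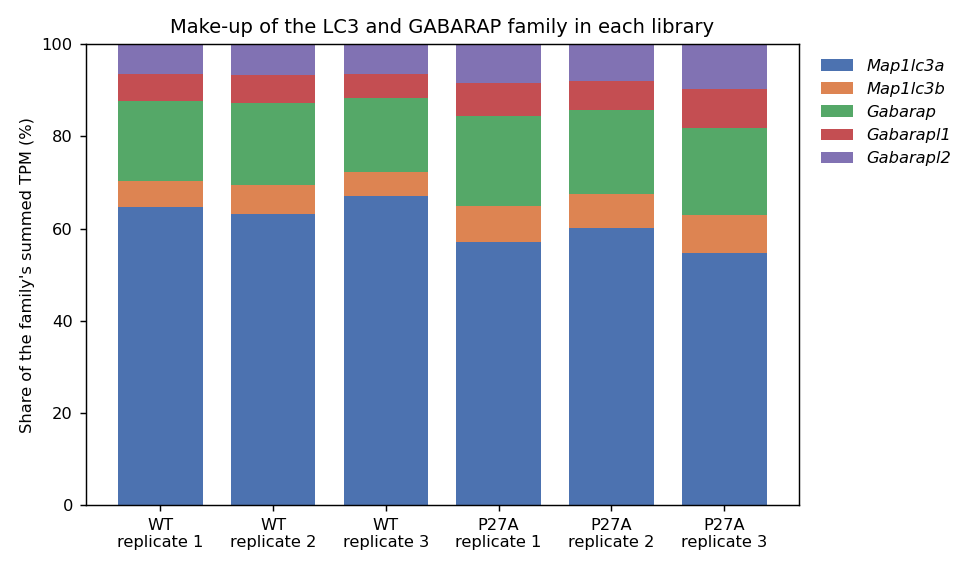
Share of each of the 5 LC3 and GABARAP genes in their summed TPM (%), one bar for each library. The *Map1lc3a* part is 63.2% to 67.1% in the 3 LrpprcWT bars and 54.6% to 60.1% in the 3 LrpprcP27A bars.

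Soluble cargo receptors bind ubiquitinated cargo and LC3 or GABARAP proteins. Of the 3 measured here 1 fell and 0 rose on the deposited TPM, where 23.3% and 1.34% of all genes did. With median-of-ratios scaling 0 fell and 2 rose, where 6.03% and 5.25% of all genes did. *Nbr1* (chr11:101442962-101472781), whose product cooperates with p62, had 36.1, 27.4 and 36.6 TPM with LrpprcWT and 24.0, 21.8 and 24.9 TPM with LrpprcP27A, groups that do not overlap, and fell (log2 fold change -0.48, SE 0.14, adjusted p = 0.042 from limma; block, 0.0042). Scaled by median of ratios, it was -0.11 (adjusted p = 0.32), and only without LrpprcWT replicate 2 was the call kept (adjusted p = 0.0040, against 0.081 to 0.15 for the other libraries).

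*Sqstm1* (chr11:50089572-50107684), which encodes p62, was at 233, 217 and 277 TPM with LrpprcWT and at 245, 257 and 306 TPM with LrpprcP27A. The groups overlap, each LrpprcP27A library was above its own pair, and the log2 fold change was 0.15 (SE 0.13, adjusted p = 0.35 from limma), or 0.53 (SE 0.11, adjusted p = 0.037, and 0.0096 with the block) with median-of-ratios scaling. *Sqstm1* exceeded *Nbr1* by 6.46, 7.93 and 7.57 times with LrpprcWT and by 10.2, 11.8 and 12.3 times with LrpprcP27A, without overlap (log2 difference 0.65, SE 0.12, exact permutation p = 0.1). *Optn* (chr2:5022703-5068945) encodes optineurin, a receptor in PINK1-dependent mitophagy. It had 36.7, 31.8 and 40.1 TPM against 42.2, 42.2 and 55.8 TPM, with every LrpprcP27A library above the LrpprcWT range. Its log2 fold change was 0.35 (SE 0.15, adjusted p = 0.093 from limma; block, 0.023), and 0.72 (SE 0.12, adjusted p = 0.026) with median-of-ratios scaling.

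Of the mitophagy genes, PINK1 is a kinase that builds up on depolarised mitochondria, and BNIP3, BNIP3L (NIX) and FUNDC1 are receptors in the outer mitochondrial membrane. *Pink1* (chr4:138039346-138053618) had 369.9, 411 and 386 TPM with LrpprcWT and 467, 429 and 473 TPM with LrpprcP27A. Its groups do not overlap, although LrpprcWT replicate 2 came near LrpprcP27A replicate 2. The log2 fold change was 0.23 (SE 0.10, adjusted p = 0.094 from limma; block, 0.11). After median-of-ratios scaling the value was 0.61 (SE 0.14, adjusted p = 0.041, and 0.022 with the block). Without LrpprcWT replicate 2 *Pink1* passed on the deposited TPM as well (adjusted p = 0.031 from limma). With any other library left out it did not (adjusted p up to 0.26). With median-of-ratios scaling and 1 library left out, *Pink1* passed only without LrpprcWT replicate 2.

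*Bnip3* was at 112, 99.6 and 131 TPM with LrpprcWT and at 94.1, 112 and 138 TPM with LrpprcP27A, with wide and overlapping groups and almost equal means (114 and 115 TPM, log2 fold change -0.00, SE 0.16). *Bnip3l* had a mean of 30.8 and 28.9 TPM (log2 fold change -0.09, adjusted p = 0.53 from limma) and *Fundc1* of 17.8 and 16.1 TPM (-0.14, adjusted p = 0.43). With the block and median-of-ratios scaling together, the log2 fold change of *Bnip3* was 0.37 (adjusted p = 0.031) and that of *Bnip3l* 0.28 (adjusted p = 0.049), while *Fundc1* did not pass (0.22, adjusted p = 0.20). The ratio of *Bnip3* to *Bnip3l* was higher with LrpprcP27A in 3 of 3 pairs but overlapped between groups (exact permutation p = 0.6).

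FoxO factors are forkhead transcription factors that AKT holds out of the nucleus, and muscle expresses *Foxo1*, *Foxo3* and *Foxo4*. *Foxo4* (chrX:100298073-100304479) was the most abundant of the 3, with 65.7, 66.2 and 62.7 TPM with LrpprcWT and 83.2, 74.6 and 79.0 TPM with LrpprcP27A. The groups lay apart, with a log2 fold change of 0.28 (SE 0.10, adjusted p = 0.065 from limma; block, 0.057). After median-of-ratios scaling the value was 0.65 (SE 0.12, adjusted p = 0.031), and without LrpprcWT replicate 2 the deposited TPM gave an adjusted p of 0.026. With any other library left out *Foxo4* did not pass on the deposited TPM (adjusted p up to 0.20 from limma).

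*Foxo1* had 6.78, 5.002 and 9.76 TPM with LrpprcWT and 4.41, 4.15 and 7.04 TPM with LrpprcP27A. The pair of replicate 3 was the highest in both groups, and each LrpprcP27A library was below its own pair. The unpaired fit gave a log2 fold change of -0.39 (SE 0.25, adjusted p = 0.23 from limma) and the block an adjusted p of 0.021. With median-of-ratios scaling it was -0.07. *Foxo3* had a mean of 9.23 and 7.60 TPM (log2 fold change -0.24, adjusted p = 0.27 from limma). *Foxo4* exceeded *Foxo1* by 9.69, 13.2 and 6.42 times with LrpprcWT and by 18.9, 18.0 and 11.2 times with LrpprcP27A. The ratio was higher in 3 of 3 pairs but overlapped between groups (log2 difference 0.74, SE 0.39, exact permutation p = 0.2).

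Beyond these 35, 92 genes of the same pathways were listed by role, and 89 passed the filter. Of the 89, 15 fell (16.9%) and 3 rose (3.37%) on the deposited TPM, where 23.3% and 1.34% of all tested genes did. With median-of-ratios scaling 1 fell (1.12%) and 9 rose (10.1%), where 6.03% and 5.25% of all tested genes did. The median log2 fold change of the 89 was -0.21 on the deposited TPM and 0.11 with median-of-ratios scaling. *Atg9b* and *Tfec* were under the filter, and *Igfbp1* was listed at 0 in every library. With the block 30 fell and 3 rose, where 48.4% and 2.69% of all genes did. With the block and median-of-ratios scaling 5 fell and 22 rose, where 15.8% and 13.4% of all genes did. Without LrpprcWT replicate 2 the deposited TPM gave 42 lower, where 59.5% of all genes were. Without any other library it gave 0 to 8, where 0.129% to 14.5% of all genes were lower.

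Among 23 other core autophagy genes 3 fell and 0 rose, where 23.3% and 1.34% of all genes did. *Vamp8*, a SNARE of the fusion with the lysosome, was at 18.8, 13.5 and 18.1 TPM with LrpprcWT and at 11.8, 10.6 and 10.03 TPM with LrpprcP27A (log2 fold change -0.58, adjusted p = 0.031 from limma). *Wdr45b*, a relative of the WIPI genes, had a log2 fold change of -0.54 (adjusted p = 0.031) and *Snx18*, which encodes a membrane-remodelling sorting nexin, of -0.50 (adjusted p = 0.044). Among 16 other selective receptors and their regulators 3 fell and 0 rose, against the same 23.3% and 1.34% of all genes. *Tbk1*, the kinase that phosphorylates optineurin, was at 10.8, 6.90 and 10.5 TPM against 6.09, 5.59 and 5.80 TPM (log2 fold change -0.58, adjusted p = 0.042), while *Optn* did not pass on the deposited TPM. *Stbd1*, a glycogen receptor, had a log2 fold change of -0.48 (adjusted p = 0.040) and *Fkbp8*, a mitochondrial LC3-binding protein, of -0.38 (adjusted p = 0.041). None of these 6 passed with median-of-ratios scaling (adjusted p of 0.10 to 0.93 from limma).

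Of the 22 upstream kinases and nutrient sensors, which hold or release the ULK1 complex, 3 fell and 1 rose (23.3% and 1.34% of all genes). *Akt1* was at 49.8, 36.0 and 53.1 TPM with LrpprcWT and at 32.9, 25.3 and 28.9 TPM with LrpprcP27A (log2 fold change -0.64, adjusted p = 0.031 from limma). Of the 6 listed subunits of AMP-activated protein kinase 1 fell and 1 rose, and *Prkaa2*, *Prkab1*, *Prkag1* and *Prkag3* did not pass (adjusted p of 0.61, 0.052, 0.092 and 0.14). *Prkaa1*, the alpha 1 catalytic subunit, fell by 0.60 on the log2 scale (adjusted p = 0.031), while *Prkab2*, the beta 2 subunit that prevails in muscle, rose from 103.8, 126.8 and 93.7 TPM to 135.4, 172.8 and 175.9 TPM (log2 fold change 0.58, adjusted p = 0.031, and 0.95 with median-of-ratios scaling, adjusted p = 0.0400). *Sesn3* had a log2 fold change of -0.72 (adjusted p = 0.048). With median-of-ratios scaling *Akt1*, *Prkaa1* and *Sesn3* had log2 fold changes of -0.28, -0.27 and -0.41 and did not pass (adjusted p of 0.11, 0.091 and 0.15).

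TFEB and its relatives are transcription factors of lysosomal and autophagy genes that RAG GTPases hold at the lysosome. Of 9 tested genes of this list 0 fell and 1 rose, where 23.3% and 1.34% of all genes did. The 1 was *Rragd*, which encodes a RAG GTPase. It was at 63.6, 72.3 and 66.0 TPM with LrpprcWT and at 79.7, 103.9 and 98.7 TPM with LrpprcP27A (log2 fold change 0.47, adjusted p = 0.034 from limma, and 0.84 with median-of-ratios scaling, adjusted p = 0.034). Of 19 tested genes that FoxO factors are known to induce, 6 fell and 1 rose on the deposited TPM (23.3% and 1.34% of all genes). With median-of-ratios scaling 1 fell and 1 rose (6.03% and 5.25% of all genes). *Gadd45a*, a stress response gene, was at 49.0, 41.9 and 82.4 TPM against 18.4, 22.4 and 26.2 TPM (log2 fold change -1.29, SE 0.24, adjusted p = 0.017), and fell with median-of-ratios scaling too (-0.92, adjusted p = 0.039). *Bbc3*, which encodes the apoptosis activator PUMA, had a log2 fold change of -0.91 (adjusted p = 0.027) and *Cited2*, a transcriptional coregulator, of -0.72 (adjusted p = 0.026), and neither passed with median-of-ratios scaling (-0.64 and -0.35, adjusted p of 0.075 and 0.21). *Fbxo32*, the ubiquitin ligase atrogin-1, went the other way, with every LrpprcP27A library above the LrpprcWT range (91.5 to 130.4 against 58.8 to 73.0 TPM). Of the 19, 10 were below the median of all genes and 9 above it.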

How the data were processed

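RNA of whole TA muscle was sequenced in 6 libraries, 3 for LrpprcWT and 3 for LrpprcP27A. Per the study's methods, the authors trimmed the reads, aligned them to GRCm39 with CLC Genomics Workbench and deposited TPM per gene, a unit scaled to gene length and to a fixed library total, so read depth is unknown. No column of unmatched samples was present. From the deposited TPM, log2(TPM + 1) of genes with a mean of at least 1 TPM was fitted with limma 3.58.1 (R 4.3.3) with a trend, without a pairing term, and adjusted by the Benjamini-Hochberg method; genes at an adjusted p under 0.05 were called. Fold changes on this scale understate those of low genes. The fit was tested on simulated data. Ratios were compared by exact two-sided permutation tests.

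Numbers shared by the groups (library numbers 4, 8 and 9) were taken to mark contralateral muscles of a mouse, which the labels do not state. Deviations from group means correlated by 0.36, 0.53 and 0.36 within numbers and by -0.36 to 0.0040 between them, so the replicate block was used as an alternative. Deviations within a group sum to 0 for each gene, so the values between numbers follow in part from those within and are no separate check. The other alternatives were a pseudocount of 0.1, other filters, no trend, 3 scalings (median-of-ratios, quantile, TPM outside mitochondrial and ribosomal RNA), the Kruskal-Wallis test of the study, and each library left out. Within a group, replicates were whole muscles of separate mice, as far as the library numbers show. Between groups, libraries of the same number would then come from the same mouse. The 35 genes, the pathway lists and the marker lists were chosen with earlier results of these data known. All 35 are named; of each pathway list the 3 largest decreases and 3 largest increases among called genes are named. Motifs were searched in GRCm39 with GENCODE vM39 starts.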

Additional observations from a re-analysis of the deposited data

How the results depend on the processing

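The counts of calls depended on the setting, and the cause was not tested. Of all genes, 2705 fell and 156 rose on the deposited TPM. The numbers were 42 and 9 with no filter, 5619 and 312 with the replicate block, 700 and 610 after median-of-ratios scaling, 518 and 493 after quantile normalization, and 15 to 6913 and 3 to 304 with each library left out in turn (lowest without LrpprcWT replicate 3, highest without LrpprcWT replicate 2). A mean TPM of at least 5 gave 1560 lower, the rescaling outside mitochondrial and ribosomal RNA 657 lower and 218 higher, and both the block and median-of-ratios scaling 1839 lower and 1561 higher. All settings tested the same 11611 genes, except no filter, which tested more, and a mean TPM of at least 5, which tested fewer. The Kruskal-Wallis test gave 0 in each direction, since its smallest unadjusted p is 0.0495 and its smallest adjusted p 0.0969. At an unadjusted p under 0.05 it gave 9 of the 35 lower and 4 higher, where 47.6% and 3.51% of all tested genes were. With 3 against 3 libraries that p is reached only without overlap, so these are the genes without overlap counted above. Of the 35 genes, lower calls went from 3 to 0 with no filter, 9 with the block, 0 with median-of-ratios scaling, 1 each with quantile normalization, the rescaling and the fit that joins block and median-of-ratios scaling, 0 with the Kruskal-Wallis test, and 0 to 14 with each library left out. Higher calls went from 0 to 1 with the block, 6, 3 and 2 with median-of-ratios, quantile and rescaled values, 9 with that joint fit, and 0 to 2 with each library left out. On the median-of-ratios scale, leaving out each library (chosen after seeing the data) gave 0 to 9 higher and 0 to 1 lower. Of the 89 other pathway genes, 0 fell and 0 rose with no filter, 30 fell with the block, 1 fell and 9 rose after median-of-ratios scaling, 2 fell and 5 rose after quantile normalization, 1 fell and 3 rose with the rescaling, 5 fell and 22 rose with the joint fit, and 0 to 42 and 0 to 3 with each library left out. The median of the 35 minus that of all genes was 0.08 and became -0.077 with no filter, where 14 of the 35 lay above the median of all genes instead of 27. *Atg9a*, *Bnip3* and *Bnip3l* changed sign and passed the test with the block and median-of-ratios scaling, at 0.36, 0.37 and 0.28. The block leaves each log2 fold change as it is, by construction. A pseudocount of 0.1 and limma without the trend changed no call among the 35. A pseudocount turned no ratio, while leaving out 1 library turned the log2 ratio of *Ulk1* to *Ulk2* from 0.03 to -0.02 (LrpprcP27A replicate 1), of *Wipi1* to *Wipi2* from -0.03 to 0.02 (LrpprcWT replicate 1 or LrpprcP27A replicate 2) and of *Bnip3* to *Bnip3l* from 0.09 to -0.02 (LrpprcP27A replicate 3). TPM keep no depth, so the counting error behind each value is unknown.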

Other observations

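Outside the genes named by rule, 6 pathway genes, chosen here after their values were seen, passed the test with median-of-ratios scaling and not on the deposited TPM. With that scaling 10.1% of the 89 tested pathway genes rose, where 5.25% of all tested genes did. Without replicate 1 or 3 of LrpprcWT or replicate 2 or 3 of LrpprcP27A, only 0.0258% to 0.0603% of all genes rose on that scale. *Epg5*, a tether for the fusion of autophagosomes with lysosomes, had a mean of 7.44 TPM with LrpprcWT and of 8.90 TPM with LrpprcP27A (scaled log2 fold change 0.57, adjusted p = 0.026 from limma). *Atg4d*, a protease of the same family as *Atg4b*, had 9.81 and 10.8 TPM (0.47, adjusted p = 0.045). The other 4 belong to the mTORC1 branch and its upstream kinases. *Tsc1*, part of the complex that restrains mTORC1, had 8.12 and 9.71 TPM (0.57, adjusted p = 0.028), *Rheb*, the GTPase that activates mTORC1, 13.3 and 12.9 TPM (0.32, adjusted p = 0.048), *Akt1s1*, which encodes the mTORC1 inhibitor PRAS40, 56.9 and 60.3 TPM (0.45, adjusted p = 0.041), and *Stk11*, the kinase LKB1 upstream of AMP-activated protein kinase, 39.3 and 40.7 TPM (0.42, adjusted p = 0.036). Activators and inhibitors of mTORC1 were thus both among them. On the deposited TPM their adjusted p from limma was 0.18 to 0.87.

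*Tfeb* differed little in level between libraries, with 21.1, 19.5 and 19.5 TPM with LrpprcWT and 19.8, 19.8 and 19.7 TPM with LrpprcP27A (log2 fold change -0.02, adjusted p = 0.89 from limma). Its relative *Tfe3* had 4.55, 2.91 and 4.22 TPM against 2.96, 2.14 and 2.31 TPM (log2 fold change -0.49, adjusted p = 0.068, and 0.0077 with the replicate block). With median-of-ratios scaling these were 0.34 and -0.20 (adjusted p of 0.073 and 0.27 from limma, and of 0.028 and 0.12 with the block).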
